A study of Caenorhabditis elegans with 8 samples.

Results

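The lysozyme and saposin-like effector genes of Caenorhabditis elegans are the genes whose symbol begins with lys, ilys or spp, and 46 such genes were among the 46739 genes counted in each library. They comprise 10 lys genes, 6 ilys genes and 30 spp genes. The gene spp-27 fits the rule by its symbol but has no entry in the counts, and was therefore not analysed. RNA of whole worms was sequenced in 8 libraries from 1 strain in which DAF-15, the worm form of the TORC1 subunit Raptor, can be degraded in neurons through an auxin-inducible degron (AID). Worms on E. coli OP50 were given the auxin analog 5-Ph-IAA (4 libraries) or ethanol (4 libraries) for 24 h from the L4 larval stage and were collected on day 1 of adulthood. Every library carries the same neuronal DAF-15 AID genotype, and no library lacked the degron, which means that effects of the compound and of DAF-15 loss cannot be told apart. The neuronal promoter of the degron system is not given in the sources used here, nor are the dose and any pooling of worms.

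Worms eat bacteria, and the gut lumen is their main contact with microbes. Lysozymes cut the peptidoglycan of bacterial walls. The lys genes code for lysozymes related to those of protists, and the ilys genes code for the invertebrate type. The spp genes code for short saposin-like proteins, several of which (the caenopores) open pores in bacterial membranes, much as the amoebapores of amoebae do. Many of these genes are expressed in the intestine or pharynx, and some respond to the insulin, p38 MAP kinase and TGF-beta pathways.

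Between 7354710 and 10893322 reads per library fell in genes, and 12021 genes passed the filter on low counts and were tested with edgeR's quasi-likelihood test. Levels are reads scaled to library size (CPM, with TMM factors), fold changes are 5-Ph-IAA over ethanol, and adjusted p-values are edgeR's (Benjamini-Hochberg, all tested genes) unless another tool is named. A second fit took the replicate number as a block (the replicate block). The labels state no pairing, and the block was chosen from these same counts. In them libraries of equal number deviated together, though weakly (correlations of 0.1002 to 0.1474). The transcript of daf-15 stood at 119.1 ± 6.20 CPM with 5-Ph-IAA and 121.1 ± 6.89 CPM with ethanol (SD, n = 4 each), and since the degron acts on the protein this does not check the treatment. Summed levels of the marker genes of intestine, pharynx, epidermis, body muscle, coelomocytes, neurons and germline overlapped between the groups, and no marker of these lists was at 0 in all libraries. In whole-worm RNA a change in the number or size of the cells that express a gene and a change in its RNA per cell cannot be told apart. The labels do not tie replicates to separate cultures, and p-values here reflect library-to-library spread, which may be technical.

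Most lysozyme and saposin-like genes showed no difference that passed the test in either fit. The exceptions were 3 genes that were higher with 5-Ph-IAA in the fit with the replicate block, namely spp-17, its neighbour spp-23 and the invertebrate-type lysozyme gene ilys-3. Without the block, 0 of the 27 tested members passed in either direction, where 0.0832% of all tested genes were called higher and 0.0166% lower. At an unadjusted p under 0.05 there were 4 members without the block, against 4.41% of all tested genes, and 5 with it, against 6.91%. With the block 3 of 27 were called higher and 0 lower, where 0.474% of all tested genes were called higher and 0.258% lower. Among the 3, and among those at an unadjusted p under 0.05, is ilys-3. It reached the level set by the filter in all 4 libraries with 5-Ph-IAA and in 2 with ethanol. Nothing is therefore read from these counts against the share of all genes. Without the block, DESeq2 called spp-17 alone (0.191% of all tested genes called higher), edgeR with no filter on low counts called spp-17 and ilys-3 (0.201%), and limma-voom called 0.

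The 27 tested members were 6 lys, 4 ilys and 17 spp genes, and they held 99.84% of the summed CPM of all members. The other 19 had too few reads to be tested. Of these, ilys-1, lys-9, spp-7 and spp-30 had 0 reads in all 8 libraries, which allows a level of up to 0.280 to 0.413 CPM in a library (3 reads, counting error only). The remaining 15 were lys-3, lys-5, lys-10, ilys-6, spp-6, spp-9, spp-11, spp-12, spp-13, spp-19, spp-20, spp-21, spp-26, spp-28 and spp-29, with 1 to 68 reads over all libraries. Among them is spp-12, known from neurons of the pharynx, with 6 reads over the 5-Ph-IAA libraries and 1 over the ethanol libraries.

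Levels per kilobase of exon spanned a wide range among the tested members, and 8 of the 27 ranked among the 1000 highest of the 12021 tested genes. The median over all tested genes was 17.05 CPM per kb, and 17 of the 27 members stood above it. The highest member was spp-5, which codes for the pore-forming caenopore-5, at 1002 CPM per kb with 5-Ph-IAA and 982.2 CPM per kb with ethanol. It was followed by spp-14 at 769.2 CPM per kb with 5-Ph-IAA and 817.2 CPM per kb with ethanol. The level of lys-1 was 518.2 CPM per kb with 5-Ph-IAA and 548.8 CPM per kb with ethanol. That of lys-2 was 520.1 CPM per kb with 5-Ph-IAA and 536.3 CPM per kb with ethanol. The gene spp-17 stood at 587.6 CPM per kb with 5-Ph-IAA and 477.3 CPM per kb with ethanol, so that it lay above both lys genes in mean level in one group and below both in the other. The lowest tested members were spp-31 and ilys-2, with means over all libraries of 2.467 and 2.963 CPM per kb.

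**Figure D1:**
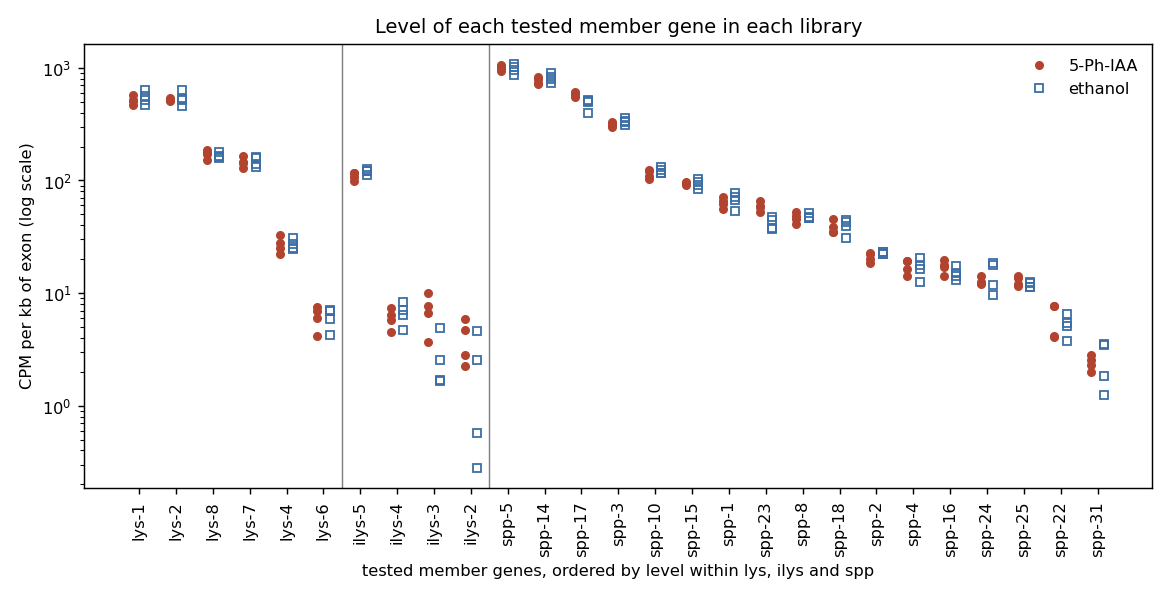
Level of the 27 tested members in each library, in CPM per kb of exon on a log axis, with 5-Ph-IAA (filled circles) to the left of ethanol (open squares) for each gene and the genes ordered by level within lys, ilys and spp. The mean over all 8 libraries runs between 2.467 CPM per kb for spp-31 and 992.3 CPM per kb for spp-5, while the groups of most genes overlap.

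Many members sit next to another member on the chromosome, and neighbours often differ widely in level. In the Ensembl annotation of assembly WBcel235, 23 of the 46 members lie in 8 runs, with gaps of 522 to 2234 bp. No other protein-coding gene reaches into 13 of the 15 gaps, while the other 2, between spp-20, spp-26 and spp-19, are overlapped by twk-10 on the opposite strand. A run of 5 genes on the X chromosome holds spp-3, spp-2, spp-6, spp-4 and spp-5. Their mean levels over all libraries were 322.7, 21.74, 0.3705, 17.03 and 992.3 CPM per kb in that order, so the highest member of all lies in a run with one that had 8 reads in all. On chromosome V lys-1 and lys-2 stood at 533.5 and 528.2 CPM per kb, while lys-3, 625 bp from lys-2, stood at 0.5381 CPM per kb. The run on chromosome IV of lys-4, lys-5 and lys-6 had 26.89, 1.321 and 6.121 CPM per kb. Also on chromosome IV, ilys-3, ilys-2 and ilys-1 had 4.860, 2.963 and 0 CPM per kb. Close paralogs can lose reads that align to more than 1 gene, and how similar these sequences are was not analysed here.

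The lys genes, led by lys-1 and lys-2, did not differ detectably. Of the 6 tested lys genes, 0 passed in either fit, and their log2 fold changes lay between -0.08 and 0.05, with a median of -0.01 against -0.0009 over all tested genes. The transcript of lys-1 (WBGene00003090, V: 10277904 to 10279056) stood at 453.5, 485.8, 554.1 and 494.3 CPM in 5-Ph-IAA replicates 1 to 4 and at 452.5, 543.6, 608.0 and 500.8 CPM in ethanol replicates 1 to 4. Both the lowest and the highest library were of the ethanol group, and the groups overlapped. The log2 fold change was -0.08 (SE 0.08, adjusted p = 0.999), with a 95% interval of 0.831-fold to 1.07-fold. Its neighbour lys-2 (WBGene00003091, V: 10280307 to 10281474) stood at 468.6, 479.0, 505.9 and 483.6 CPM in the 5-Ph-IAA libraries and at 426.2, 486.1, 588.0 and 496.8 CPM in the ethanol libraries. As for lys-1, ethanol replicate 1 was lowest and ethanol replicate 3 highest. The 5-Ph-IAA values of lys-2 lay close together (SD 15.7 CPM), against an SD of 66.8 CPM with ethanol.

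Of the lys genes outside this pair, lys-8 and lys-7 were the most abundant. The gene lys-8 (WBGene00003097, II: 5586178 to 5587651), known to respond to the TGF-beta ligand DBL-1, stood at 147.7, 168.1, 179.9 and 168.6 CPM with 5-Ph-IAA and at 152.2, 158.7, 172.5 and 156.2 CPM with ethanol. The groups overlapped (log2 fold change 0.05, SE 0.06, adjusted p = 0.999), and 5-Ph-IAA was higher in 3 of 4 pairs. The gene lys-7, a reporter of DAF-16 activity in the gut, averaged 131.7 ± 13.5 CPM with 5-Ph-IAA and 133.6 ± 13.8 CPM with ethanol (SD, n = 4 each). Levels were lower for lys-4, at 21.15 ± 3.56 CPM with 5-Ph-IAA and 21.22 ± 2.19 CPM with ethanol, and for lys-6, at 4.371 CPM with 5-Ph-IAA and 4.309 CPM with ethanol. Over the 6 genes the 95% intervals ran between 0.727-fold and 1.405-fold, and both ends belong to lys-6, the least abundant.

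Among the ilys genes, ilys-3 was higher with 5-Ph-IAA once the libraries were paired by number. ILYS-3 is known to digest Gram-positive bacteria and to act in the pharynx and gut. Its transcript (WBGene00016670, IV: 2464456 to 2465443, plus strand) was scarce, with 18, 26, 29 and 45 reads in 5-Ph-IAA replicates 1 to 4 and 6, 11, 19 and 9 reads in ethanol replicates 1 to 4. As levels these are 1.821, 3.306, 3.801 and 4.937 CPM with 5-Ph-IAA and 0.8266, 1.265, 2.409 and 0.8395 CPM with ethanol. The groups overlapped, since 5-Ph-IAA replicate 1 lay below ethanol replicate 3, but 5-Ph-IAA was higher in 4 of 4 pairs. Of the tested members 4 were higher in all pairs and 1 was lower in all, where 7.17% and 7.02% of all tested genes were. Among the 4 are ilys-3 and ilys-2, which reached the level set by the filter in 4 and 3 libraries with 5-Ph-IAA. With ethanol each reached it in 2, so nothing is read from this count against the share of all genes.

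The mean of ilys-3 was 3.466 ± 1.29 CPM with 5-Ph-IAA and 1.335 ± 0.745 CPM with ethanol (SD, n = 4 each), or 2.61-fold. Without the block the log2 fold change of 1.38 (SE 0.36) had an adjusted p of 0.286, and with the block that of 1.43 (SE 0.32) passed (adjusted p = 0.0139). The blocked call ended without replicate 2 (0.0792) or replicate 4 (0.375) and with blocked DESeq2 (0.373). Of the 4 tested ilys genes, ilys-3 was the 1 that reached the 1.21 CPM of the filter in all 5-Ph-IAA libraries and not in all ethanol libraries, of which 2 did. Of the 6 tested pharynx markers, 5 had a log2 fold change above 0 and 1 below, with a median of 0.19. None of these markers passed in either fit, and their part in the ilys-3 result was not tested.

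The next gene, ilys-2 (WBGene00016669, IV: 2467678 to 2468879), did not pass in either fit. It had 11, 11, 22 and 21 reads with 5-Ph-IAA and 1, 11, 18 and 3 reads with ethanol, and 5-Ph-IAA was higher in 4 of 4 pairs in CPM. Its log2 fold change was 0.97 (SE 0.57, adjusted p = 0.999) without the block and 1.10 (SE 0.42, adjusted p = 0.459) with it. In the ethanol group replicate 3 was the highest library for both genes, and replicates 1 and 4 were the lowest. The tested genes on the far sides of this pair, C45G7.13 and Y69A2AL.2, both named after their values were seen, had log2 fold changes of -0.41 and -0.05, each at an adjusted p of 0.999.

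Most ilys reads came from ilys-5, which passed in neither fit. Its transcript (WBGene00017691, X: 6533490 to 6536840) made up 94.32% of the summed ilys level and stood at 127.5, 139.1, 148.8 and 150.7 CPM with 5-Ph-IAA and at 156.5, 162.6, 144.2 and 154.4 CPM with ethanol. The groups overlapped, and 5-Ph-IAA was higher in 1 of 4 pairs. Neither fit called the log2 fold change of -0.13 (SE 0.06), with an adjusted p of 0.999 without the block and of 0.495 with it. Its 95% interval was 0.843-fold to 0.995-fold. The gene ilys-4 (WBGene00016958, IV: 7895628 to 7897543) stood at 4.553, 5.086, 3.539 and 5.814 CPM with 5-Ph-IAA and at 3.720, 5.635, 6.594 and 5.037 CPM with ethanol. The groups overlapped, with 5-Ph-IAA higher in 2 of 4 pairs, and the log2 fold change of -0.14 (SE 0.22) did not pass (adjusted p = 0.999). Of the genes too scarce to test, ilys-6 had 0 reads over the 5-Ph-IAA libraries and 4 over the ethanol libraries.

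Among the spp genes, the adjacent genes spp-17 and spp-23 were higher with 5-Ph-IAA in the fit with the block, and in every library of that group. The transcript of spp-17 (WBGene00005002, I: 1016405 to 1017176, plus strand) stood at 202.4, 218.9, 214.3 and 222.3 CPM in 5-Ph-IAA replicates 1 to 4 and at 145.2, 179.9, 184.4 and 187.4 CPM in ethanol replicates 1 to 4. The lowest 5-Ph-IAA library lay above the highest ethanol library, and ethanol replicate 1 was the lowest of all. The mean was 214.5 ± 8.71 CPM with 5-Ph-IAA and 174.2 ± 19.6 CPM with ethanol (SD, n = 4 each), or 1.23-fold with a 95% interval of 1.118-fold to 1.35-fold.

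Without the block the log2 fold change of spp-17, 0.30 (SE 0.07), did not pass (adjusted p = 0.120), and with the block it was 0.30 (SE 0.05) and did (adjusted p = 3.74e-05). The blocked call held in all 7 fits with the block, which include blocked DESeq2, blocked limma-voom and each replicate left out (adjusted p between 1.11e-05 and 0.00264). Without ethanol replicate 1 the unblocked log2 fold change was 0.22 (adjusted p = 0.308). The summed level of the intestinal markers lay between 42836 and 48066 CPM in the 5-Ph-IAA libraries and between 38908 and 49503 CPM in the ethanol libraries. The vitellogenin genes vit-2 and vit-5 made up 94.6% of this sum. Without them it lay between 2184 and 2559 CPM with 5-Ph-IAA and between 2411 and 2665 CPM with ethanol.

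Of the 12 intestinal markers found, 5 had a log2 fold change above 0 and 7 below, with a median of -0.03. None passed without the block, and with it 1 was higher and 1 lower. The higher one was the gut cysteine protease gene cpr-1, whose values stand with the other effectors. The lower one was vha-6, which codes for a gut subunit of the vacuolar proton pump, at 249.5 ± 19.7 CPM with 5-Ph-IAA and 283.7 ± 18.1 CPM with ethanol (SD, n = 4 each). Its log2 fold change was -0.19 in both fits, with an adjusted p of 0.674 without the block and of 0.0236 with it. That call ended without replicate 1, 3 or 4 (0.0578, 0.126 and 0.324) and with blocked DESeq2 (0.281). The part of these markers in the spp-17 result was not tested.

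The transcript of spp-23 (WBGene00021335, I: 1018843 to 1019157, plus strand) begins 1666 bp after the end of spp-17 and was scarcer, at 59.02 CPM per kb with 5-Ph-IAA and 41.74 CPM per kb with ethanol. It stood at 16.69, 20.85, 18.61 and 18.21 CPM with 5-Ph-IAA and at 11.85, 11.73, 14.84 and 14.18 CPM with ethanol. These groups did not overlap either, and 5-Ph-IAA was higher in 4 of 4 pairs. Of the tested members, 2 had groups that did not overlap and were higher with 5-Ph-IAA and 0 were lower in this way, where 1.54% and 1.11% of all tested genes were. The mean was 18.59 ± 1.72 CPM with 5-Ph-IAA and 13.15 ± 1.59 CPM with ethanol (SD, n = 4 each), or 1.41-fold. The log2 fold change was 0.49 (SE 0.12, adjusted p = 0.224) without the block and 0.50 (SE 0.12, adjusted p = 0.0253) with it. The blocked call ended without replicate 1, 2 or 3 (0.0635, 0.409 and 0.0501) and with blocked DESeq2 (0.541).

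The genes on either side of this pair, named after their values were seen, had smaller values that did not pass. On the left madf-6, 1949 bp from spp-17, had a log2 fold change of 0.11 (SE 0.11), and on the right mrpl-38, 669 bp from spp-23, had one of 0.02 (SE 0.05), with an adjusted p of 0.999 for each.

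**Figure D2:**
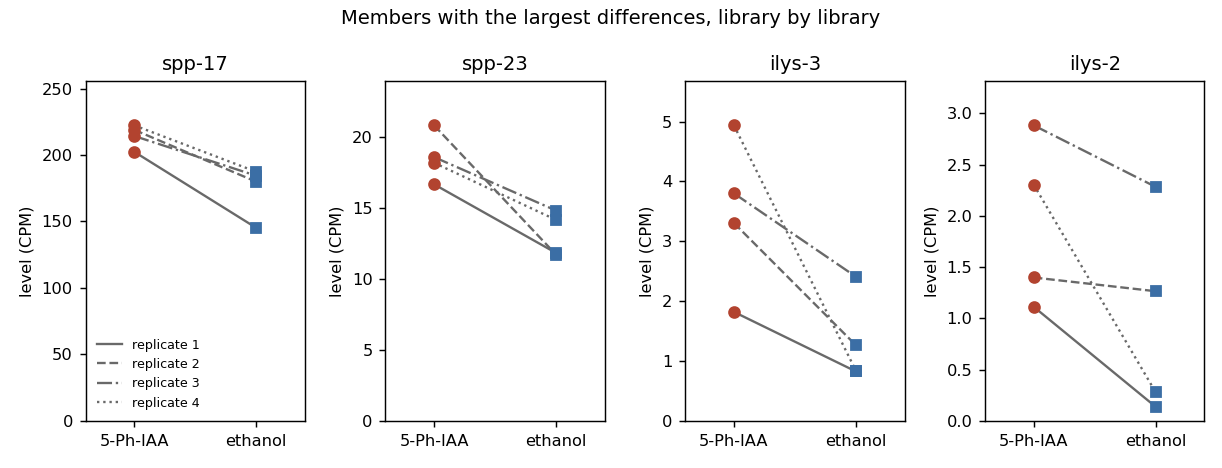
Levels in CPM of spp-17, spp-23, ilys-3 and ilys-2 in each library, 5-Ph-IAA on the left and ethanol on the right, with lines joining libraries of the same replicate number. All lines run lower at the ethanol end, and the groups are apart for spp-17 and spp-23 and overlap for ilys-3 and ilys-2.

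The saposin-like genes with the highest levels, spp-5 and spp-14, did not differ detectably. The transcript of spp-5 (WBGene00004990, X: 7319937 to 7320354) stood at 395.1, 366.0, 373.5 and 349.0 CPM with 5-Ph-IAA and at 374.8, 399.2, 356.8 and 322.8 CPM with ethanol. The groups overlapped throughout (log2 fold change 0.03, SE 0.06, adjusted p = 0.999), with a 95% interval of 0.938-fold to 1.11-fold. The transcript of spp-14 (WBGene00004999, X: 7725979 to 7726383) stood at 257.9, 293.7, 280.9 and 262.8 CPM with 5-Ph-IAA and at 294.8, 320.9, 284.9 and 263.1 CPM with ethanol. It was the 1 tested member that was lower with 5-Ph-IAA in 4 of 4 pairs, by a log2 ratio that ran between -0.19 in pair 1 and -0.002 in pair 4. The log2 fold change of -0.09 (SE 0.06) passed in neither fit (adjusted p = 0.999 unblocked and 0.766 blocked).

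The other saposin-like genes lay near 0. Of the 17 tested spp genes, 15 did not pass in either fit, and their log2 fold changes lay between -0.16 and 0.21. The caenopore gene spp-1, known with lys-7 and lys-8 among the genes raised by DAF-16, averaged 33.18 ± 3.605 CPM with 5-Ph-IAA and 34.91 ± 5.10 CPM with ethanol (SD, n = 4 each). The spp-3 mean was 107.4 ± 4.83 CPM with 5-Ph-IAA and 114.0 ± 6.77 CPM with ethanol. The gene spp-10, with the longest exon sequence of the class, averaged 173.5 ± 15.1 CPM with 5-Ph-IAA and 185.6 ± 11.7 CPM with ethanol, and its neighbour spp-8 averaged 60.92 ± 6.002 CPM with 5-Ph-IAA and 61.80 ± 3.08 CPM with ethanol. None of these 4 passed (adjusted p = 0.999 for each). The remaining tested genes were spp-2, spp-4, spp-15, spp-16, spp-18, spp-22, spp-24, spp-25 and spp-31, of which spp-16 had the largest positive value (0.21, SE 0.15) and spp-24 the largest negative one (-0.16, SE 0.19). Exons of spp-15 and spp-16 overlap those of the opposite-strand genes C48E7.6 and F32D8.7, with longest shared stretches of 243 and 170 bases. For spp-1 the longest stretch shared with the opposite-strand gene T07C4.3 is 19 bases. T07C4.3 had 10779 reads over all libraries, against 2327 for spp-1. With no strand setting stated for the counts, reads of these partners cannot be told apart.

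**Figure D3:**
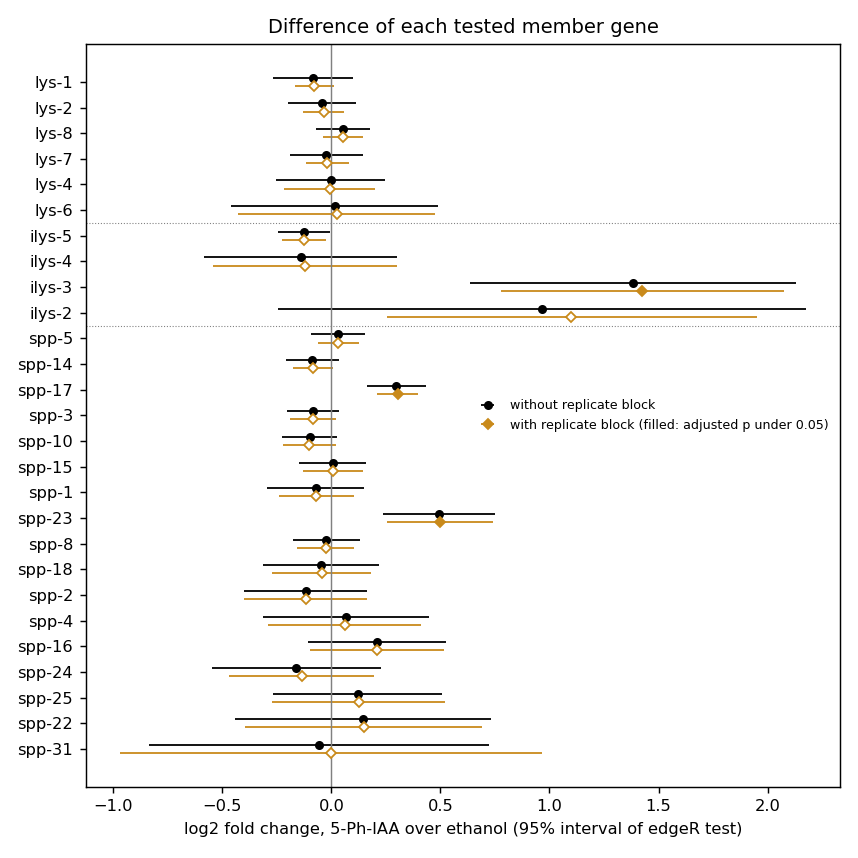
Log2 fold change (5-Ph-IAA over ethanol) of the 27 tested members with its 95% interval from edgeR's quasi-likelihood test, without the replicate block (black circles) and with it (diamonds, filled where the adjusted p is under 0.05). The filled diamonds are ilys-3, spp-17 and spp-23, and the widest intervals belong to the scarce genes ilys-2, ilys-3 and spp-31.

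The precision differed by gene level. The biological coefficient of variation fitted by edgeR ran between 5.68% for spp-3 and 43.7% for ilys-2, with a median over the 27 members of 9.56%, against 9.45% over all tested genes. For 25 of the 27 the 95% interval lay within 2-fold in either direction, and for 22 within 1.5-fold. The 2 whose interval reached past 2-fold were ilys-2 and ilys-3. Of all 27, 12 had a log2 fold change above 0 and 15 below, with a median of -0.02, where 49.7% of all tested genes stood above 0.

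Summed over their members, the lys and spp classes differed between the groups by less than the SD between libraries. For ilys the log2 difference was about as large as that SD (-0.099 against 0.096 in log2). No test was run on these sums. All members together took 0.285% of the counts. The summed lys level was 1306 ± 73.9 CPM with 5-Ph-IAA and 1346 ± 150.0 CPM with ethanol (SD, n = 4 each). For ilys the sums were 151.7 ± 12.7 CPM with 5-Ph-IAA and 162.1 ± 6.55 CPM with ethanol, and without ilys-5 they were 10.14 ± 2.29 CPM with 5-Ph-IAA and 7.682 ± 2.87 CPM with ethanol. The difference between the groups in the mean of the log2 ilys sums was -0.10 with ilys-5 and 0.45 without it. This class sum therefore rests on 1 gene. The spp sums were 1373 ± 43.7 CPM with 5-Ph-IAA and 1357 ± 68.4 CPM with ethanol.

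**Figure D4:**
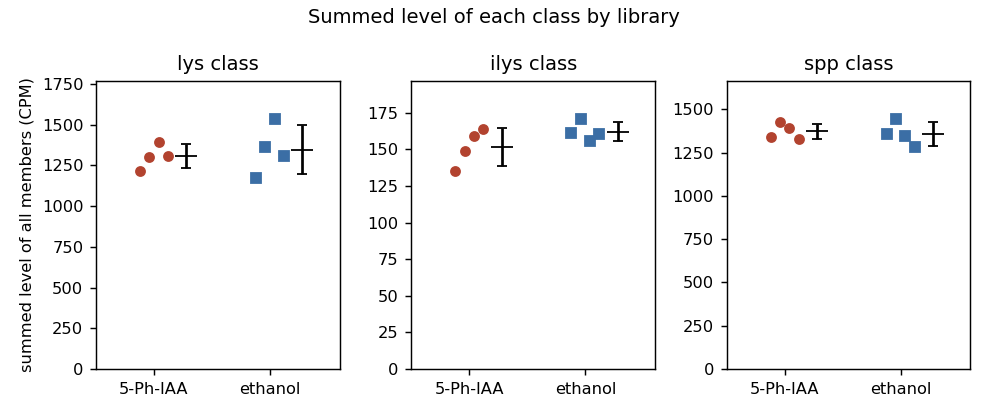
Summed level in CPM of all members of the lys, ilys and spp classes in each library (points), with mean and SD (bars), 5-Ph-IAA on the left and ethanol on the right. Points of the groups overlap in all 3 classes, at 1306 and 1346 CPM on average for lys, 151.7 and 162.1 CPM for ilys and 1373 and 1357 CPM for spp, 5-Ph-IAA first.

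Genes on the lists of immune regulators and other effectors did not pass without the block, and 2 did with it. The list of 28 regulators, all tested, held genes of the p38 MAP kinase, DBL-1 and insulin pathways, gut transcription factors and some other genes. Of these 28, 0 passed in either fit and 2 had an unadjusted p under 0.05 without the block, where 4.41% of all tested genes had. Their median log2 fold change was -0.01. The largest values belonged to egl-5, a Hox gene, and elt-7, a GATA factor of the gut. The level of egl-5 was 3.113 ± 0.657 CPM with 5-Ph-IAA and 4.270 ± 0.247 CPM with ethanol, and that of elt-7 was 3.684 ± 0.351 CPM with 5-Ph-IAA and 5.027 ± 0.538 CPM with ethanol (SD, n = 4 each, adjusted p = 0.999 for both).

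The list of 42 other effectors held antibacterial factors, thaumatin-like proteins, C-type lectins, infection-response genes, gut proteases and some genes outside these classes. Of these 42, 34 were tested, with a median log2 fold change of 0.01. None passed without the block in edgeR, DESeq2, limma-voom or edgeR with no filter, and 6 of the 34 had an unadjusted p under 0.05 in edgeR, where 4.41% of all tested genes had. With the block 1 rose and 1 fell, where 0.474% of all tested genes were called higher and 0.258% lower. The gene cpr-1 was higher, at 25.35 ± 2.37 CPM with 5-Ph-IAA and 19.16 ± 5.10 CPM with ethanol (block log2 fold change 0.42, SE 0.11, adjusted p = 0.0396). The C-type lectin gene clec-66 was lower, at 28.57 ± 2.41 CPM with 5-Ph-IAA and 36.80 ± 3.09 CPM with ethanol (block log2 fold change -0.37, SE 0.09, adjusted p = 0.0182). Both calls ended with blocked DESeq2 (adjusted p = 0.714 for cpr-1 and 0.370 for clec-66), that of cpr-1 also without replicate 1, 2 or 4 (0.174, 0.399 and 0.156) and that of clec-66 without replicate 2, 3 or 4 (0.0768, 0.0897 and 0.124). The largest unblocked values were those of clec-86 (0.74, SE 0.27, adjusted p = 0.991) and clec-4 (-0.61, SE 0.21, adjusted p = 0.831), which did not pass.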

How the data were processed

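Whole-worm RNA was compared between 4 libraries of 5-Ph-IAA and 4 of ethanol. The deposited values are raw gene-level counts in 1 file for each library, and FastQC 0.11.5, TopHat2, HTSeq and DESeq2 are named in the submitters' processing notes with no role. The build is not given in the sources used here, nor are annotation and strand setting. In each file 5 summary lines, which name no gene, were left out (reads in no feature were 47.74% to 48.06% of the counts, ambiguous reads 0.296% to 0.390% and reads with several alignments 4.14% to 4.55%). Symbols came from a WormBase name table (43720 of 46739 identifiers matched), and coordinates (1-based) and exon lengths from Ensembl release 115, assembly WBcel235, which need not be the annotation used for counting.

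Genes passing filterByExpr (1.21 CPM in at least 4 libraries) were tested with edgeR 4.0.16 in R 4.3.3 (TMM, robust quasi-likelihood, two-sided, threshold 0.05). SE is the absolute log2 fold change over the square root of F, and intervals are unadjusted t intervals from it. DESeq2 1.42.0, limma-voom (limma 3.58.1), other scalings and filters, and leaving out libraries were alternatives. The tests were tried on simulated counts with known changes before use. Equal replicate numbers were taken to pair the libraries because deviations from the group means correlated at 0.1002 to 0.1474 within every number (bar 0.1). Between numbers the correlations were -0.099 to 0.0103. Deviations from a group mean cancel over its libraries, so the values between numbers follow in part from those within and are no separate support. All replicates differed by more than sampling noise (chi-square over degrees of freedom 2.53 to 9.10). The members, lists and rules were chosen with earlier results of these data known. Every member is named, with full values for those past an adjusted or unadjusted p of 0.05 in either fit, the 3 highest per class per kb and the 2 largest changes per class. From the regulator, effector and marker lists, genes past the adjusted threshold in either fit are named, and from the first 2 also the 2 largest changes among genes at 1 CPM or more in 4 libraries.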

Additional observations from a re-analysis of the deposited data

How the results depend on the processing

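Over all genes, 10 were higher and 2 lower in the fit without the block. These counts were 47 and 15 with no filter, 23 and 6 with DESeq2, 5 and 0 with a filter of 5 CPM in 4 libraries (chosen after seeing the data, because the planned filter of 1 CPM in 4 libraries kept more genes than filterByExpr), 57 and 31 with the replicate block, 19 and 5 with the block and DESeq2, and 55 and 29 with the block and limma-voom. The lower count was 1 with upper quartile factors and 0 with limma-voom. Leaving out 1 library gave 6 to 15 higher and 0 to 4 lower, and leaving out 1 number with the block 31 to 56 higher and 17 to 48 lower. For the members, 0 were higher without the block, 2 with no filter, 1 with DESeq2, 3 with the replicate block, 1 with the block and DESeq2 and 3 with the block and limma-voom. Leaving out 1 library gave 0 and leaving out 1 number with the block 1 to 2, and 0 were lower in all 22 alternative fits. In the effector list the block gave 1 higher and 1 lower, as did the block with limma-voom, while the block with DESeq2 gave 0 and 0, and fits without 1 library or number gave 0 to 1 higher and 0 to 2 lower. Among the intestinal markers the block called vha-6 lower and cpr-1, also in the effector list, higher. In edgeR the block changed no other call among the members or lists. The cause of these differences was not tested, beyond the number of genes or libraries entering each fit. The ilys sum turned to a log2 difference of 0.45 without ilys-5. Of 589 refits of single members, 528 kept direction and call, 17 passed the threshold where the fit without the block did not, and 44, in 14 members, changed sign, with no absolute log2 fold change above 0.231. They include spp-31 with limma-voom (0.045) and with blocked DESeq2 (0.036). The others came from leaving out a library or number, over which the log2 fold changes ran between -0.26 and 0.11 for ilys-4, -0.11 and 0.040 for lys-2, -0.11 and 0.077 for lys-4, -0.11 and 0.27 for lys-6, -0.089 and 0.031 for lys-7, -0.17 and 0.0040 for spp-1, -0.063 and 0.17 for spp-4, -0.023 and 0.084 for spp-5, -0.081 and 0.031 for spp-8, -0.045 and 0.057 for spp-15, -0.15 and 0.045 for spp-18, -0.0096 and 0.30 for spp-22, -0.33 and 0.028 for spp-24 and -0.25 and 0.23 for spp-31. Depth limits the genes under about 2 CPM, where 1 read is worth 0.0933 to 0.138 CPM.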

Other observations

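A few members too scarce to test had reads in 1 group alone. The gene spp-9 had 2, 1, 1 and 0 reads in 5-Ph-IAA replicates 1 to 4 and 0 in each ethanol library. The gene spp-29 had 0 reads in each 5-Ph-IAA library and 2, 0, 1 and 0 in ethanol replicates 1 to 4. For ilys-6 the 4 reads of the ethanol group came from replicates 2 and 4. Another scarce gene, spp-28, had 9, 12, 11 and 9 reads with 5-Ph-IAA and 8, 4, 4 and 11 with ethanol, and lys-5 had 13, 8, 11 and 5 with 5-Ph-IAA and 6, 13, 3 and 4 with ethanol. Counts this low do not tell the groups apart.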
